A study of Mus musculus with 7 samples.

Results

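Messenger RNA of 10 mouse genes that build, cut or protect the matrix of Bruch's membrane was compared between wild type (WT) retinal pigment epithelium (RPE) and RPE that lacks LC3b. The genes were taken by name: the proteases *Htra1*, *Mmp2*, *Mmp14* and *Adamts9*, the inhibitors *Timp1*, *Timp2* and *Timp3*, and the elastic fibre genes *Eln*, *Fbln5* and *Efemp1*. These are 10 of the 52740 gene identifiers in the count table, and all 10 were among the 16990 genes with enough counts to be tested. RNA sequencing was done on 7 libraries, each from the RPE of a different mouse aged 24 months, with no pooling. WT mice were C57BL6/J, 3 females (F1, F2 and F3) and 1 male (M1). The *LC3b-/-* mice, 2 females (F1 and F3) and 1 male (M), carried the tm1Mrab allele of *Map1lc3b* in all cells on a mixed B6;129P2 background, so strain background and the deleted gene cannot be told apart. The labels name no treatment. RPE cells were detached with hyaluronidase and trypsin once the front of the eye and the lens had been cut away.

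Bruch's membrane is the sheet of extracellular matrix between the RPE and the capillaries of the choroid, with a basement membrane on each face and an elastin core. RPE and choroidal cells lay down its fibres, metalloproteinases and serine proteases cut them, and tissue inhibitors of metalloproteinases (TIMPs) block the metalloproteinases. The membrane thickens with age and collects deposits in age-related macular degeneration. Variants near *HTRA1*, *TIMP3* and *ADAMTS9* have been linked to that disease, and mutations in *TIMP3* and *EFEMP1* cause the inherited macular diseases Sorsby fundus dystrophy and Doyne honeycomb dystrophy.

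In *LC3b-/-* RPE 8 of the 10 genes had a higher mean, where 51.2% of all genes tested did. The other 2, *Timp3* and *Fbln5*, had a lower mean, and none of the 10 passed the test. A gene was called when edgeR's quasi-likelihood test gave an adjusted p under 0.05 (Benjamini-Hochberg over all 16990 genes) and a fold change of at least 1.5. Of the members 0 were called, against 0.235% of all genes tested. Before adjustment 6 members had a p under 0.05. Of these 5 were higher (*Htra1*, *Timp1*, *Adamts9*, *Mmp14* and *Eln*), where 13.5% of all genes were higher at that level. The other, *Fbln5*, was lower, where 10.6% of all genes were. In 4 members (*Htra1*, *Timp1*, *Adamts9* and *Eln*) every *LC3b-/-* library lay above every WT library, as in 12.0% of all genes. In 0 members was the reverse seen, against 10.3% of all genes. The call depends on the tool: DESeq2's Wald test called those same 4 members (9.85% of all genes it tested) and limma's voom called *Htra1* alone (0.730% of all genes). The median log2 fold change of the 10 genes was 0.86, and that of all genes tested was 0.01. Levels are given as CPM, counts scaled to a common library size with TMM factors. Where a level is given for each mouse, WT values are in the order F1, F2, F3, M1 and *LC3b-/-* values in the order F1, F3, M. With 4 libraries against 3 there are 35 splits, so the smallest two-sided p of an exact permutation test of a single gene is 0.0286. As each library is a mouse, these p-values measure the spread between mice. The mouse names also hold a further number of unstated meaning, which differs between the WT mice, the *LC3b-/-* females and the *LC3b-/-* male, so what it marks cannot be told apart from genotype, nor from sex within *LC3b-/-*.

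**Figure D1:**
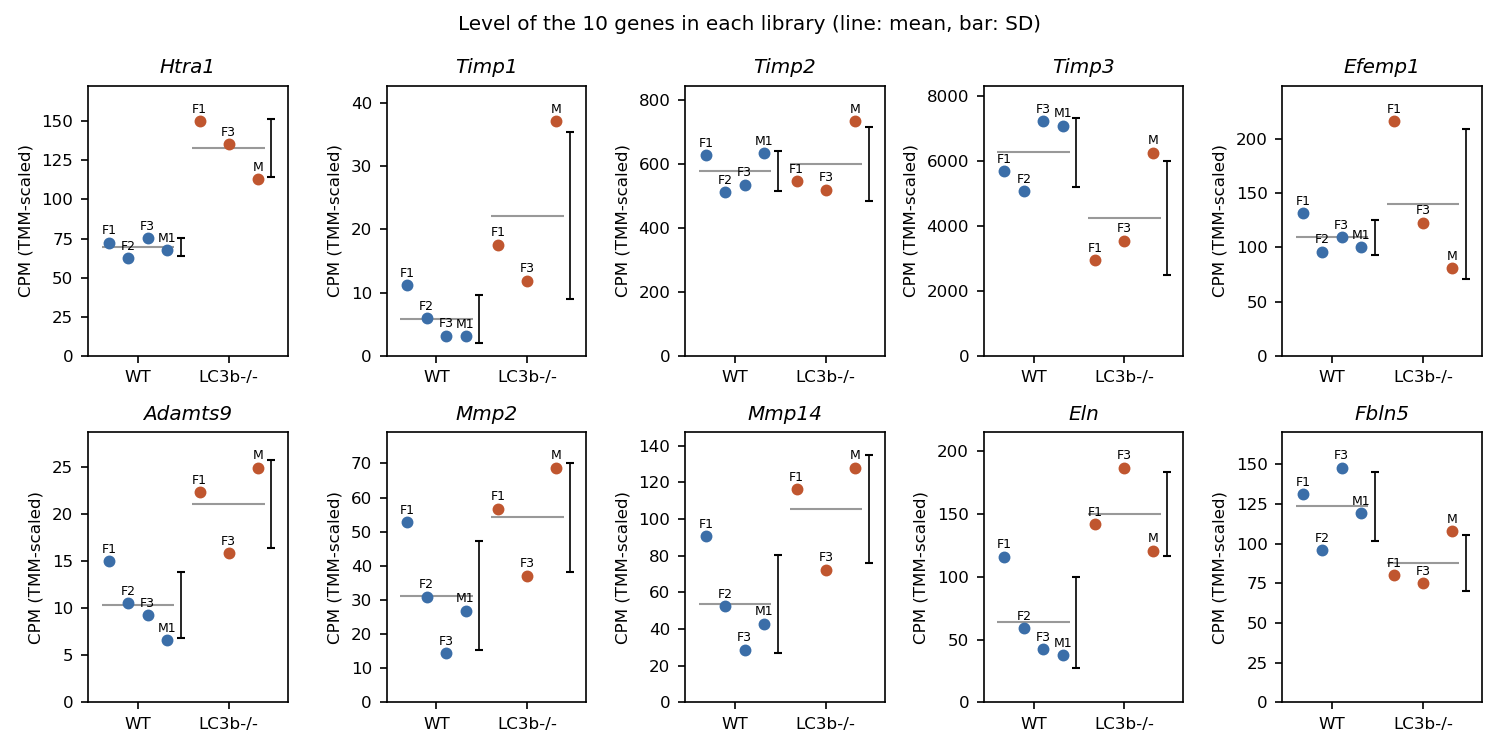
Level of each of the 10 genes in CPM on the TMM scale (linear axes from 0) in the 4 WT and 3 *LC3b-/-* libraries; points are mice, lines group means and bars SD. *Htra1*, *Timp1*, *Adamts9* and *Eln* show no overlap between the groups, and *Timp3* and *Fbln5* have lower means in *LC3b-/-*.

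The 7 libraries held 24495952 to 35616134 counts each. The deleted gene matched the labels, since *Map1lc3b* stood at 103.9 to 130 CPM in WT and 6.76 to 8.32 CPM in *LC3b-/-*. All 10 RPE markers were found in every library, *Best1* only at 0.86 to 1.71 CPM. The samples also held other cells, and marker lists of several moved with genotype. The 10 RPE markers summed to 30174 to 47544 CPM in WT and 13148 to 28221 CPM in *LC3b-/-*, with 9 of 10 lower in *LC3b-/-*. The 9 endothelial markers summed to 399 to 1247 CPM in WT and 1422 to 1685 CPM in *LC3b-/-*, with 9 of 9 higher. The 8 fibroblast markers ran from 487 to 1512 CPM in WT and from 917 to 1957 CPM in *LC3b-/-* (6 of 8 higher), and the 7 mural cell markers from 294 to 816 and 618 to 765 CPM (4 of 7 higher). Markers of ocular surface epithelium summed to 8.68 to 2437 CPM in WT and 3324 to 23619 CPM in *LC3b-/-*, with 10 of 10 higher and the top value in *LC3b-/-* F1. Photoreceptor markers ran from 23.6 to 19383 and from 41.0 to 6751 CPM (0 of 10 higher), macrophage and microglia markers from 380 to 543 and from 258 to 475 CPM (3 of 9 higher), Müller glia and astrocyte markers from 2087 to 2464 and from 1773 to 2404 CPM (1 of 5 higher), and Schwann cell markers from 262 to 4531 and from 184 to 238 CPM (2 of 5 higher). Within those lists the Schwann cell gene *Ncmap* alone averaged under 1 CPM. The part of these cells in the members' values was not tested. In such bulk samples fewer cells of a type and less RNA per cell cannot be told apart.

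*Htra1* encodes a secreted serine protease that cuts fibronectin, fibulins and other matrix proteins. It lies on the plus strand of chromosome 7 (GRCm39, 130537518 to 130587390; ENSMUSG00000006205). The WT mice had 72.4, 62.6, 75.4 and 67.4 CPM, and the *LC3b-/-* mice 149.9, 135 and 113 CPM. The WT mice lay close together, with a coefficient of variation of 8.08%, and the lowest *LC3b-/-* library stood well above the highest WT library. Means were 69.4 ± 5.61 CPM (SD, n = 4) and 133 ± 18.6 CPM (SD, n = 3), a 1.91-fold higher level in *LC3b-/-*. The log2 fold change was 0.94 with a standard error of 0.13 (edgeR, p = 0.000131, adjusted p = 0.0530; exact permutation p = 0.0286). This missed the threshold by little. With all libraries kept, edgeR called the gene under other scalings, other filters or sex as a covariate (adjusted p 0.0405 to 0.0485). The edgeR adjusted p became 0.0485 when WT F1 was left out and 0.0248 when *LC3b-/-* M was. It lay between 0.148 and 0.204 without any other single library. Without WT F1 the log2 fold change was 0.96, and its standard error rose from 0.13 to 0.15. Calls over all genes moved too, from 40 of 16990 to 215 of 16753 without WT F1 and 485 of 17553 without *LC3b-/-* M. On all libraries DESeq2 gave *Htra1* an adjusted p of 4.10e-06 and voom 0.0356. The adjusted p spanned 4.10e-06 to 0.204 over 16 alternative settings, of which 9 called the gene, while the log2 fold change stayed between 0.84 and 1.04.

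*Htra1* was the member nearest to the threshold, so the 250 bases before its annotated start are shown (chr7:130537268-130537517, GRCm39, plus strand). Windows of this kind were searched on both strands for an AP-1 site (TGANTCA), a GC box (GGGCGG) and a TATA box (TATAAA), and capitals mark a match; no match overlapped another in the members. Of 14928 protein-coding genes tested, 4.78% held the AP-1 letters, 47.1% the GC box and 7.56% the TATA box. The *Htra1* window held none of these motifs, and 53.2% of its bases were G or C, against a median of 56.4% over all windows.
Htra1: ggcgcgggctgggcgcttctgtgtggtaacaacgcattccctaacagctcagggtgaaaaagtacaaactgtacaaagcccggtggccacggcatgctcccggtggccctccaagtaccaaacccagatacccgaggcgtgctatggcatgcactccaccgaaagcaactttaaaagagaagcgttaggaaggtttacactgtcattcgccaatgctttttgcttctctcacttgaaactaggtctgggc

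*Mmp2* and *Mmp14* work as a pair, since membrane-bound MMP14 (MT1-MMP) activates pro-MMP2, a gelatinase that degrades collagen IV, with the help of TIMP2. *Mmp2* (chromosome 8, 93553902 to 93580049, plus strand; ENSMUSG00000031740) stood at 52.7, 31.0, 14.4 and 26.9 CPM in the WT mice and at 56.8, 37.1 and 68.8 CPM in the *LC3b-/-* mice. *Mmp14* (chromosome 14, 54668878 to 54682821, plus strand; ENSMUSG00000000957) stood at 90.6, 52.4, 28.7 and 43.0 CPM in the former and at 116, 72.4 and 128 CPM in the latter. Both ranked the 7 libraries alike in each group, with WT F1 at the level of the *LC3b-/-* mice and WT F3 lowest, and for both the groups overlapped through WT F1. *Mmp2* averaged 31.3 ± 16.0 CPM in WT against 54.2 ± 16.0 CPM in *LC3b-/-* (SD, n = 4 and 3), with a log2 fold change of 0.79 and a standard error of 0.41 (edgeR adjusted p = 0.279; exact permutation p = 0.143). *Mmp14* had means of 53.7 ± 26.5 and 105 ± 29.2 CPM and a log2 fold change of 0.97 with a standard error of 0.38 (edgeR p = 0.0361, adjusted p = 0.181; exact permutation p = 0.0857). The *Mmp14* to *Mmp2* ratio, in CPM per kb of transcript, varied little, from 1.78 to 2.22 in WT and from 2.07 to 2.27 in *LC3b-/-*. Fibroblast markers had their lowest sum in WT F3 and their highest in *LC3b-/-* M, the libraries with the lowest and highest *Mmp2* and *Mmp14*.

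**Figure D2:**
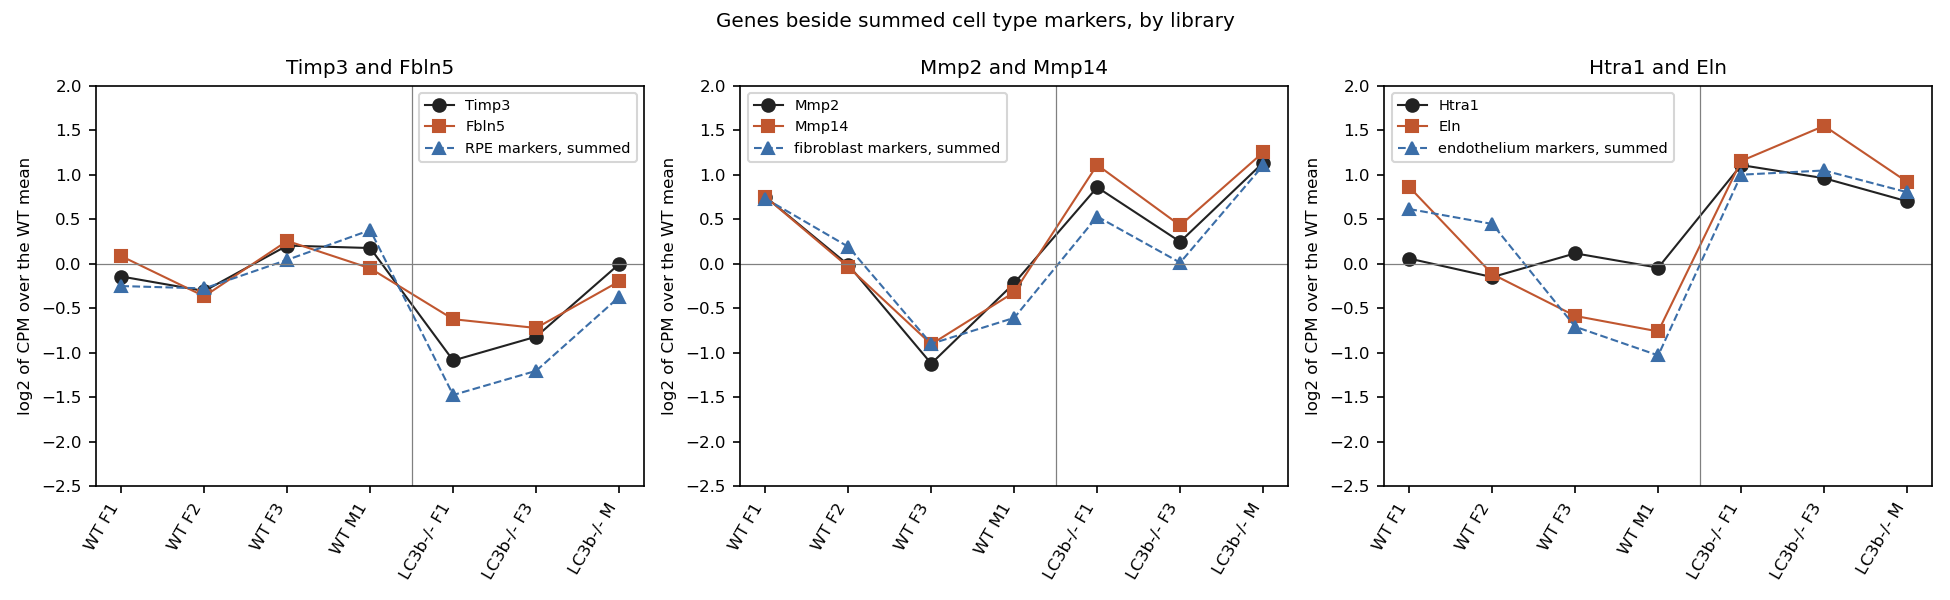
Log2 of CPM over the WT mean in each of the 7 libraries for 3 pairs of members (solid lines), each beside the summed CPM of a cell type's markers (dashed line); the vertical line parts WT from *LC3b-/-*. *Mmp2* and *Mmp14* were lowest in WT F3 (14.4 and 28.7 CPM) and highest in *LC3b-/-* M (68.8 and 128 CPM), as were the fibroblast markers (487 and 1957 CPM), and *Timp3* lay low in *LC3b-/-* F1 and F3 (2947 and 3548 CPM) as did the RPE markers (13148 and 15872 CPM).

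The upstream windows of the pair are shown because the genes varied together (*Mmp2* chr8:93553652-93553901 and *Mmp14* chr14:54668628-54668877, GRCm39, both on the plus strand). The *Mmp2* window held a GC box on the plus strand from -11 to -6, counted back from the first transcribed base, and *Mmp14* had none of the motifs. The share of G and C was 56.8% in *Mmp2* and 48.8% in *Mmp14*.
Mmp2: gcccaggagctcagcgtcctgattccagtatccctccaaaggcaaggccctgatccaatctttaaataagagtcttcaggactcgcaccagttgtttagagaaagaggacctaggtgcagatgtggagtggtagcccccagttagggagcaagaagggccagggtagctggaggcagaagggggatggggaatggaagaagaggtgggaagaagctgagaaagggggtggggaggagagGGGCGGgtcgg
Mmp14: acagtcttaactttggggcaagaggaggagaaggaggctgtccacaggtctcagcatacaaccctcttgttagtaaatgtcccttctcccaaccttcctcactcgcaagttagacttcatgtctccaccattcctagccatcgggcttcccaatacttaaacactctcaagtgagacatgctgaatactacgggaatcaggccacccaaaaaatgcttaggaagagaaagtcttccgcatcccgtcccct

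*Adamts9* encodes a secreted metalloproteinase that cleaves the proteoglycans versican and aggrecan (chromosome 6, 92749680 to 92920520, minus strand; ENSMUSG00000030022). The WT mice had 15.0, 10.5, 9.28 and 6.61 CPM and the *LC3b-/-* mice 22.4, 15.8 and 24.9 CPM. The groups did not overlap, though WT F1 came close to *LC3b-/-* F3. Means were 10.3 ± 3.49 and 21.0 ± 4.69 CPM (SD, n = 4 and 3), a log2 fold change of 1.02 with a standard error of 0.29 (edgeR p = 0.00841, adjusted p = 0.111; exact permutation p = 0.0571). DESeq2 called it with an adjusted p of 0.0157, the lowest of a range that reached 0.319 over the 16 settings.

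Of the inhibitors, *Timp1* is the member that many cell types induce in injury and inflammation. It lies on chromosome X (20736316 to 20740976, plus strand; ENSMUSG00000001131), within *Syn1* on the opposite strand. Its CPM were 11.2, 6.0, 3.18 and 3.11 in the WT mice and 17.5, 11.9 and 37.1 in the *LC3b-/-* mice. The groups met almost at WT F1 and *LC3b-/-* F3 without overlap, and the male *LC3b-/-* library stood far above both females. Means were 5.87 ± 3.80 and 22.2 ± 13.2 CPM (SD, n = 4 and 3), and the coefficient of variation was above that of every other member in both groups, 64.7% and 59.6%. The log2 fold change of 1.91 (3.76-fold) had a standard error of 0.56 (edgeR p = 0.0100, adjusted p = 0.116; exact permutation p = 0.0571). Leaving out *LC3b-/-* M gave 1.32 and leaving out WT F1 gave 2.44, not called in either, and 1.11 in the females alone. DESeq2 gave an adjusted p of 0.00668, within a range of 0.00668 to 0.297 over the 16 settings.

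*Timp2* encodes the inhibitor that bridges MMP14 and pro-MMP2 at the cell surface (chromosome 11, 118191887 to 118246566, minus strand; ENSMUSG00000017466). It showed no difference between the groups beyond their spread. The WT mice had 627, 512, 535 and 633 CPM and the *LC3b-/-* mice 547, 519 and 733 CPM. The 2 female *LC3b-/-* libraries lay within the WT range and the male above it. Means were 577 ± 62.2 and 599.7 ± 116 CPM (SD, n = 4 and 3), with a log2 fold change of 0.06 and a standard error of 0.18 (edgeR adjusted p = 0.875; exact permutation p = 0.829). The sign turned to -0.12 without *LC3b-/-* M and to -0.07 in the females alone. Against *Mmp2*, whose activation its protein assists, the *Timp2* ratio of CPM per kb was 9.82 to 30.8 in WT and 7.96 to 11.5 in *LC3b-/-*. Against *Mmp14* it was 5.15 to 13.9 and 3.50 to 5.33. The groups overlapped in both ratios, which were chosen after the values were seen and not tested.

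*Timp3*, whose protein stays bound to the matrix and is a component of Bruch's membrane, was by far the most abundant of the 10 genes (chromosome 10, 86136236 to 86185371, plus strand, within *Syn3* on the opposite strand; ENSMUSG00000020044). Levels of 5671, 5066, 7217 and 7080 CPM in WT stood against 2947, 3548 and 6246 CPM in *LC3b-/-*. Both *LC3b-/-* females lay below every WT library, while the *LC3b-/-* male lay within the WT range. Means were 6259 ± 1059 CPM (SD, n = 4) and 4247 ± 1757 CPM (SD, n = 3), a log2 fold change of -0.56 with a standard error of 0.33 (edgeR p = 0.129, adjusted p = 0.332; exact permutation p = 0.143). The libraries kept the order of the RPE markers in the *LC3b-/-* group, where the marker sums were 13148, 15872 and 28221 CPM in F1, F3 and M. Divided by the geometric mean CPM of the 10 RPE markers, *Timp3* was 7.27 to 8.23 in WT and 8.32 to 10.6 in *LC3b-/-*, and with all libraries scaled to those markers its log2 fold change was 0.22 with a standard error of 0.19 (edgeR adjusted p = 0.340), which did not pass. That scaling moved the median log2 fold change of all genes from 0.01 to 0.86, and *Timp3* lay 0.64 below that median, against 0.57 below it on the TMM scale. The scaling shifts all genes nearly alike, so a gene's place relative to the median is nearly fixed and tests nothing. The ratio of *Timp3* to *Htra1* within a library cannot be altered by scaling between libraries. The mix of cells in a library can still alter that ratio, and its part was not tested. In CPM per kb of transcript it was 40.8, 42.1, 49.8 and 54.6 in the WT mice. In the *LC3b-/-* mice it was 10.2, 13.6 and 28.7, lower than in any WT library; this ratio was chosen after its values were seen and has no test.

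The upstream window of *Timp3* (chr10:86135986-86136235, GRCm39, plus strand) is shown as that of the most abundant member. It held none of the motifs, and G and C made up 61.2% of it.
Timp3: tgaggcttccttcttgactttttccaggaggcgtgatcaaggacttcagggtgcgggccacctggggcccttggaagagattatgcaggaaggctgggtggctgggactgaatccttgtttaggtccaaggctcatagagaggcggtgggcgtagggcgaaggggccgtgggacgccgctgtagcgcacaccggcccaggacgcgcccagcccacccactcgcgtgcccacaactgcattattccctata

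Of the other 6 windows, *Efemp1* was the only one with an AP-1 match, from -99 to -93. TGANTCA is its own reverse complement, so this match has no strand. *Fbln5* had GC boxes at -214 to -209 on the plus strand and at -170 to -165 on the minus strand. Over all 10 members 1 held the AP-1 letters, 2 the GC box and 0 the TATA box.

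*Eln* encodes tropoelastin, the monomer of the elastic layer (chromosome 5, 134731445 to 134776322, minus strand; ENSMUSG00000029675). The WT mice had 116, 58.8, 42.4 and 37.6 CPM and the *LC3b-/-* mice 142, 187 and 121 CPM. The groups did not overlap, but WT F1 reached nearly the lowest *LC3b-/-* library and lay far above the other WT mice. Means were 63.7 ± 36.0 and 149.7 ± 33.7 CPM (SD, n = 4 and 3), a 2.35-fold higher level in *LC3b-/-*. The log2 fold change was 1.23 with a standard error of 0.39 (edgeR p = 0.0153, adjusted p = 0.134; exact permutation p = 0.0571). Without WT F1 the gene was called, with a log2 fold change of 1.70 and an adjusted p of 0.0469, and DESeq2 on all libraries gave 0.0230; the 16 settings ranged from 0.0230 to 0.366. Leaving out WT F1 called 215 of 16753 genes, against 40 of 16990 with all libraries. Endothelial and *Eln* levels were both highest in *LC3b-/-* F3 (1685 CPM of summed endothelial markers) and lowest in WT M1 (399 CPM).

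*Fbln5* encodes fibulin-5, which binds elastin and integrins and is needed to assemble elastic fibres (chromosome 12, 101712556 to 101785429, minus strand; ENSMUSG00000021186). Its direction was opposite to that of *Eln*. Its CPM were 131, 96.0, 148 and 119 in the WT mice and 80.3, 75.0 and 108 in the *LC3b-/-* mice. The groups overlapped only because WT F2 lay below *LC3b-/-* M. Means were 124 ± 21.8 and 87.7 ± 17.6 CPM (SD, n = 4 and 3), 1.41-fold lower in *LC3b-/-*, with a log2 fold change of -0.50 and a standard error of 0.19 (edgeR p = 0.0343, adjusted p = 0.178; exact permutation p = 0.0857). Scaled to RPE markers the log2 fold change was 0.34 with a standard error of 0.19 (edgeR adjusted p = 0.155), which did not pass, and *Fbln5* lay below the median of all genes by 0.52 there and by 0.51 on the TMM scale. The *Fbln5* to *Eln* ratio within a library, in CPM per kb of transcript, was 0.73, 1.05, 2.24 and 2.04 in the WT mice. In the *LC3b-/-* mice it was 0.36, 0.26 and 0.58, with no overlap. This ratio too was chosen after its values were seen and was not tested.

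*Efemp1* encodes fibulin-3, a matrix glycoprotein that binds TIMP3 (chromosome 11, 28803150 to 28876825, plus strand; ENSMUSG00000020467). Levels were 131, 96.0, 109 and 100.0 CPM in WT and 216, 123 and 80.8 CPM in *LC3b-/-*. *LC3b-/-* F1 was the highest and *LC3b-/-* M the lowest of all 7 libraries, so the *LC3b-/-* mice spanned the whole WT range. Means were 109 ± 15.8 and 139.9 ± 69.3 CPM (SD, n = 4 and 3), with a log2 fold change of 0.36 and a standard error of 0.31 (edgeR adjusted p = 0.509; exact permutation p = 0.629). Without *LC3b-/-* F1 the log2 fold change was -0.11.

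**Figure D3:**
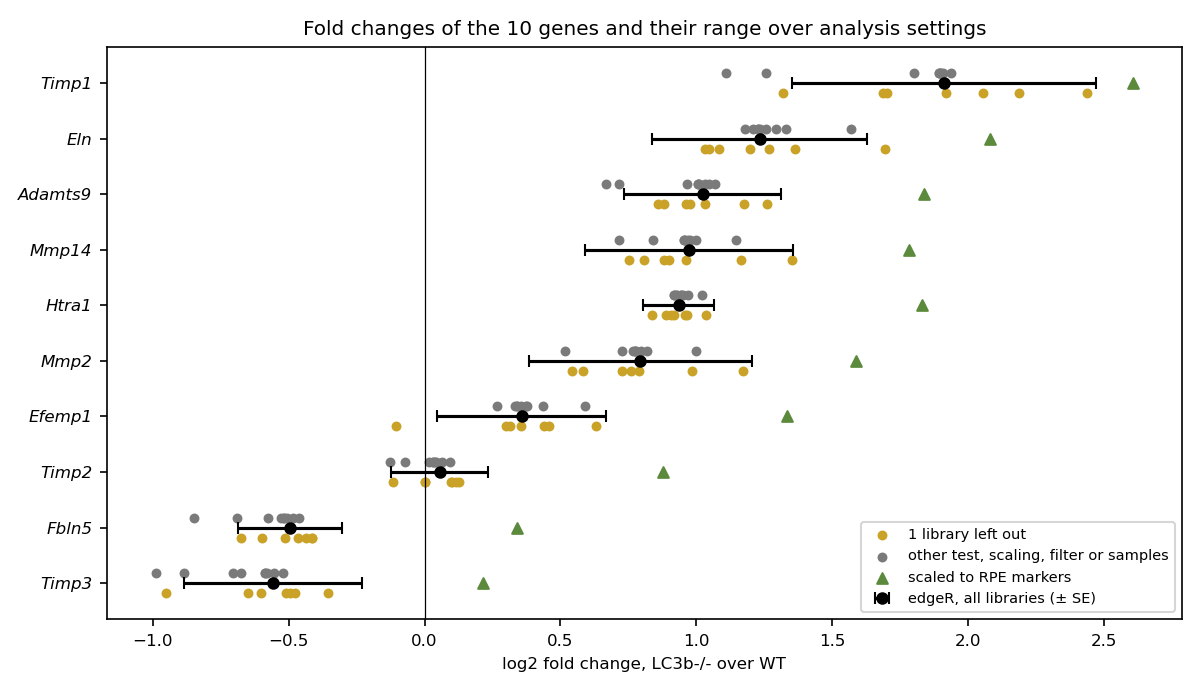
Log2 fold change of *LC3b-/-* over WT for each of the 10 genes (black, edgeR with its standard error), with each library left out (yellow), other tests, scalings, filters or samples (grey) and libraries scaled to RPE markers (green triangles). *Htra1* stayed between 0.84 and 1.04 in the yellow and grey points, and *Timp2* and *Efemp1* crossed 0. *Timp3* and *Fbln5* moved to 0.22 and 0.34 when scaled to RPE markers. That scaling moved the median of all genes to 0.86. It shifts all genes nearly alike, so the place of both genes below that median is nearly fixed.

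Levels of different members were compared as CPM per kb of the canonical transcript. In WT the order was *Timp3* (1325 CPM per kb), *Timp2* (154), *Efemp1* (50.3), *Htra1* (28.3), *Fbln5* (19.9), *Mmp14* (19.3), *Eln* (15.9), *Mmp2* (10.1), *Timp1* (6.27) and *Adamts9* (1.28). Each of the first 4 lay above the next gene in every library, whereas the ranges of neighbours from *Fbln5* to *Timp1* overlapped. In *LC3b-/-* the order was *Timp3* (899 CPM per kb), *Timp2* (160.0), *Efemp1* (64.4), *Htra1* (54.1), *Mmp14* (37.8), *Eln* (37.4), *Timp1* (23.7), *Mmp2* (17.5), *Fbln5* (14.1) and *Adamts9* (2.61). There *Efemp1* and *Htra1* overlapped, as did the neighbours from *Mmp14* to *Fbln5*, and the mean of *Fbln5* stood below those of *Mmp14*, *Eln*, *Timp1* and *Mmp2*, which it had stood above in WT by group means.

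Likeness of pattern was measured as Pearson's r of log2 CPM over the 7 libraries, which pools both genotypes and carries the difference between them. Among the 45 pairs of members *Mmp2* with *Mmp14* was the most alike (r = 0.99), followed by *Timp1* with *Adamts9* (0.96) and *Timp1* with *Mmp14* (0.95). *Timp3* went with *Fbln5* (0.89) and against *Htra1* (-0.76), *Efemp1* (-0.75) and *Eln* (-0.74). Of 11815 genes of at least 5 CPM, those most like *Mmp2* were *Nid1*, *Col6a1* and *Postn* (r = 0.99 each), which encode a basement membrane protein, a collagen VI chain and periostin. For *Mmp14* they were *Piezo2*, *Zfp36l1* and *Axl* (0.99 each), for *Timp3* *Armcx3* (0.997), *Rasgrp3* and *Soat1* (0.99 each), and for *Htra1* *Frk*, *Nck1* and *Gmeb1* (0.98 each). *Eln* was most like *Jak3*, *Sik1* and *Arhgap21* (0.99 each) and *Timp1* most like *Elf2*, *Srxn1* and *Svil* (0.99 each). With 7 libraries and so many genes compared, values this high describe the libraries and have no test.

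The rest of the matrix was followed through 7 lists of related genes, 130 in all, of which 114 were tested. With edgeR 0 of the 114 were called, 31 were higher and 2 lower at an unadjusted p under 0.05, and 91 had a higher mean in *LC3b-/-* (median log2 fold change 0.52). Over all genes tested 13.5% were higher and 10.6% lower at that level, and 51.2% had a higher mean. DESeq2 called 22 of the 114, against 9.85% of all genes, and voom 4, against 0.730%. The lists were described by these counts and not tested as sets.

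**Figure D4:**
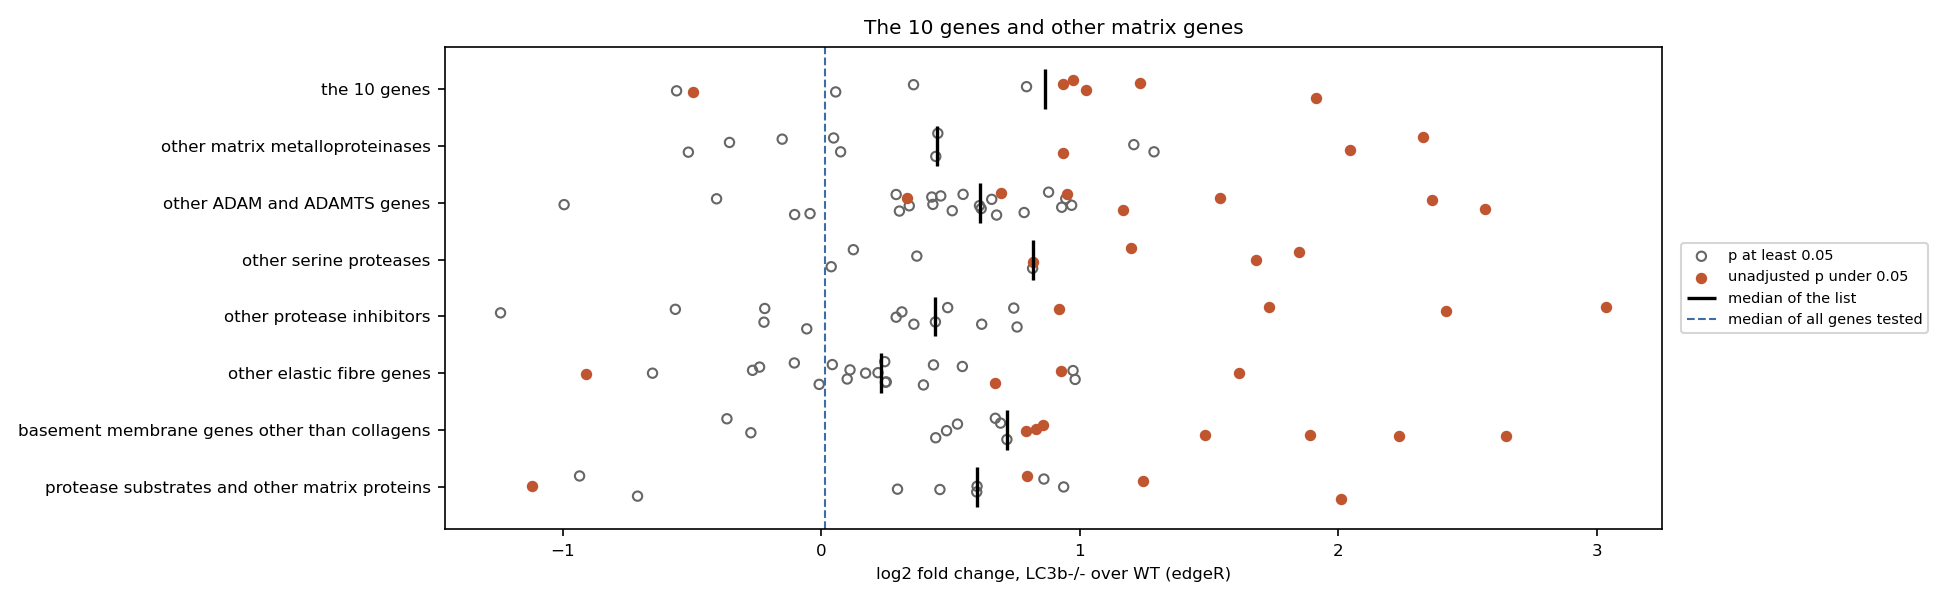
Log2 fold change of *LC3b-/-* over WT (edgeR) of the 10 genes and of 7 lists of other matrix genes; filled points had an unadjusted p under 0.05, black bars are list medians and the dashed line is the median of all genes tested (0.01). The medians were 0.86 for the 10 genes and 0.23 to 0.82 for the lists.

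Among 12 other matrix metalloproteinases tested (of 21 listed) 9 were higher and 3 lower, with a median log2 fold change of 0.45. At an unadjusted p under 0.05, 3 were higher and 0 lower, where all genes gave 13.5% and 10.6%. *Mmp3*, stromelysin-1, which degrades proteoglycans and activates other pro-MMPs, had 14.5, 15.5, 8.45 and 6.07 CPM in the WT mice and 68.2, 59.4 and 40.0 CPM in the *LC3b-/-* mice. The groups lay far apart, with a log2 fold change of 2.33, a standard error of 0.36 and an edgeR adjusted p of 0.0580 (DESeq2 6.98e-08, voom 0.0256). *Mmp12*, the macrophage elastase, averaged 4.77 ± 2.33 CPM in WT against 19.7 ± 5.55 CPM in *LC3b-/-* (SD, n = 4 and 3; log2 fold change 2.04, edgeR adjusted p = 0.0906). In 28 ADAM and ADAMTS genes tested (of 32 listed) 24 were higher and 4 lower, 7 and 0 of them at an unadjusted p under 0.05, with a median of 0.62. *Adam17*, the sheddase of tumour necrosis factor, had 24.2 ± 3.74 and 39.3 ± 4.65 CPM (0.70, adjusted p = 0.0906), *Adam8* had 3.95 ± 1.77 and 20.3 ± 13.7 CPM (2.36, adjusted p = 0.0912), and *Adamts1*, with the highest level per kb, had 201 ± 131 and 451 ± 71.4 CPM (2.24-fold, adjusted p = 0.196).

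All 8 serine protease genes tested (of 10 listed, the urokinase receptor included) were higher in *LC3b-/-*, with a median of 0.82. At an unadjusted p under 0.05, 4 of them were higher, where all genes gave 13.5% higher and 10.6% lower. *Plaur*, the urokinase receptor, averaged 9.71 ± 4.26 CPM in WT against 31.2 ± 1.38 CPM in *LC3b-/-* (SD, n = 4 and 3; log2 fold change 1.68, edgeR adjusted p = 0.0842), and *Plau*, urokinase itself, had 8.65 ± 3.22 and 19.9 ± 3.84 CPM (1.20, adjusted p = 0.0967). *Furin*, the proprotein convertase that processes MMP14, was the list's highest per kb, at 107 ± 11.0 and 117 ± 17.7 CPM (0.12, adjusted p = 0.623). Of 17 other protease inhibitors 12 were higher and 5 lower, 4 and 0 at an unadjusted p under 0.05, with a median of 0.44. *Serpina3n*, an inhibitor of serine proteases that rises in inflamed tissue, had 294, 121, 165 and 143 CPM in the WT mice and 617, 569 and 614 CPM in the *LC3b-/-* mice, which lay above them all (1.73, adjusted p = 0.0834). *Spint1*, which inhibits epithelial serine proteases, had 5.02 ± 3.56 and 41.3 ± 36.2 CPM (3.04, adjusted p = 0.108). Its groups overlapped, with 1.42 to 9.41 CPM in WT and 7.88 to 79.8 CPM in *LC3b-/-*. *Cst3*, cystatin C, which RPE secretes in quantity, had 5874 ± 1017 and 3973 ± 1130 CPM (-0.56, adjusted p = 0.258).

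Of 22 other elastic fibre genes 16 were higher and 6 lower, 3 and 1 at an unadjusted p under 0.05, where all genes gave 13.5% and 10.6%, with a median of 0.23. *Fbln7* averaged 32.4 ± 1.29 CPM in WT against 51.6 ± 7.20 CPM in *LC3b-/-* (SD, n = 4 and 3; log2 fold change 0.67, edgeR adjusted p = 0.0842), *Fbln2* had 23.0 ± 10.6 and 70.5 ± 3.69 CPM (1.61, adjusted p = 0.0903), and *Fbln1*, the fibulin of the highest level per kb in the list, had 395 ± 107 and 469 ± 170.1 CPM (0.25, adjusted p = 0.666). Of 15 basement membrane genes other than collagens 13 were higher and 2 lower, 7 and 0 at an unadjusted p under 0.05, with a median of 0.72. *Lama3*, which encodes a laminin chain, had 9.06 ± 5.30 and 33.7 ± 18.7 CPM (1.89, adjusted p = 0.125). The summed markers of surface epithelium were also higher in every *LC3b-/-* library. Of these 10 markers 8 lay higher without overlap between the groups, as did 12.0% of all genes. Their part in the value of *Lama3* was not tested. *Lamb2* had the highest level per kb (185 ± 56.6 and 251 ± 15.9 CPM; 0.44, adjusted p = 0.275). Of 12 protease substrates and other matrix proteins (of 13 listed) 9 were higher and 3 lower, 3 and 1 at an unadjusted p under 0.05, with a median of 0.60. *Tnc*, tenascin-C, had 8.63 ± 5.07 and 34.8 ± 9.73 CPM (2.01, adjusted p = 0.0967), *Thbs1*, thrombospondin-1, had 558 ± 112 and 969.6 ± 323 CPM (0.80, adjusted p = 0.144), and *Clu*, clusterin, an abundant RPE product found in deposits under the RPE, had 5653 ± 1395 and 3455 ± 1235 CPM (-0.71, adjusted p = 0.231).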

How the data were processed

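Per the labels and the study's methods, stranded libraries of polyadenylated RNA were sequenced as single reads. The authors quantified them with salmon 1.9.0 against GENCODE vM26 transcripts (GRCm39) and summed to genes with tximeta 1.16.1. The authors deposited these estimated counts as whole numbers, with no scaling to depth; salmon's options and strand setting are not given in the sources used here. All 7 columns were used, 0 were left unused. Of 52740 identifiers 51721 matched GENCODE vM39, the source of symbols, coordinates and starts; windows were read from the GRCm39 genome.

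Counts were tested in R 4.3.3 with edgeR 4.0.16 (filterByExpr, TMM, quasi-likelihood test, no covariate), which kept 16990 genes; the biological coefficient of variation was 0.398. Alternatives were DESeq2 1.42.0, limma 3.58.1 with voom, other scalings and filters, sex as a covariate and females only. Further ones were a replicate block on the F1 and F3 libraries alone, and each library left out. Scaling to RPE markers and leaving out WT F1 and *LC3b-/-* F1 together were added after seeing the data. Exact permutation tests are two-sided, on log2 CPM with a prior count of 2. Figures were drawn with matplotlib 3.10.9. On data simulated for this comparison over 16990 genes, edgeR called 89.9% of 89 genes changed by a log2 of 2, 95.5% of 111 changed by 3, and 13 unchanged genes. DESeq2 called 73 unchanged genes there. Changes under a log2 of 2, as all members had in the main fit, were not simulated, so recovery at their size is not known. The members and lists were chosen with earlier results of these data known. Genes named were the members, the 2 genes of each list with the smallest unadjusted p and the one with the highest CPM per kb (none was called), the 3 genes most like each member, and markers. A gene that this rule names is not reported here.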

Additional observations from a re-analysis of the deposited data

How the results depend on the processing

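Of the members, 4 were called with DESeq2, and *Htra1* alone (1 member) with each of voom, DESeq2's size factors, library size alone, no filter, at least 10 counts in every library and sex as a covariate. Of all genes DESeq2 called 1831 and the other settings named 49 (library size alone) to 197 (sex as a covariate), against 40 in the main fit. Without single libraries the count of members ran from 0 to 2. Without WT F1 it was 2 (*Htra1* and *Eln*), where 215 of 16753 genes were called. Without *LC3b-/-* M it was 1 (*Htra1*), where 485 of 17553 genes were called. With any other library left out it was 0, where 11 to 20 genes were called. Females only gave 0, where 96 of 17434 genes were called, and other fold thresholds gave 0. A replicate block on the mouse numbers was fitted to the F1 and F3 libraries of both genotypes alone. It gave 0 members called, as 0 of 17378 genes were called in it. There 5 members had an unadjusted p under 0.05, where the fit of all 7 libraries without the block had 6. WT and *LC3b-/-* share 2 numbers. After each gene's group mean was taken off its log2 CPM, libraries of the same number correlated at 0.15 (F1) and 0.24 (F3). Differently numbered ones reached 0.53, so the numbers were not taken to pair the mice.

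On the log2 scale *Timp2* was -0.0703 in females only, -0.13 with the replicate block and, leaving out single libraries, -0.12 (without *LC3b-/-* M) to 0.13 (without *LC3b-/-* F3). *Efemp1* ran from -0.11 (without *LC3b-/-* F1) to 0.63 (without *LC3b-/-* M); the cause was not tested. Chosen after seeing the data, leaving out WT F1 and *LC3b-/-* F1 together gave 0 members called and *Efemp1* at -0.0013. Of all genes 1 of 17300 was called there. Scaling to RPE markers, also chosen then, moved the median of all genes from 0.01 to 0.86 and called 7987 of 16990 genes, 8 members among them. *Timp3* was then 0.22 and *Fbln5* 0.34, neither passing the test (edgeR adjusted p = 0.340 and 0.155). Relative to the median of all genes 8 members lay above and 2 below, as on the TMM scale. That split was nearly fixed in advance, since the scaling shifts all genes nearly alike. Of the members' fold changes under all alternatives 152 kept direction and side of the threshold, 21 newly passed it and 7 turned sign.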
